A study of Rattus norvegicus with 20 samples.

Results

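Transcript levels in retroperitoneal tissue of rats given rosiglitazone were compared with those of lean control rats. Rosiglitazone is a thiazolidinedione drug that activates PPARG, a nuclear receptor. The comparison took the 5 arrays labelled rosiglitazone and the 5 labelled lean control, 10 of the 20 arrays of the series, and covered the 14824 of 36685 array features that carry exactly 1 gene symbol. All rats were male ZDF (Zucker diabetic fatty) animals, with Zucker given as the strain, each caged alone on a reversed light cycle with free access to food and water. Lean control rats ate a standard chow, Purina 5008, and obese rats a stock diet over 6 weeks. For the rosiglitazone rats no dose, duration, diet, genotype or age is stated in the sources used here, and for the controls no age. Nor is it stated if the rosiglitazone rats were lean or obese, so drug, genotype or obesity, and diet cannot be told apart between these groups. Total RNA, 100 ng a sample, was hybridised to an Affymetrix Rat Gene 2.1 ST array strip. Arrays within a group are biological replicates, per the labels.

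White adipose tissue stores triglyceride in adipocytes and releases fatty acids from it, and it also holds blood and lymphatic vessels, fibroblasts and macrophages. PPARG is the master regulator of adipocyte formation. Bound by a fatty acid or a drug such as rosiglitazone, and paired with RXR, it switches on genes of fatty acid uptake, storage and oxidation. In white fat of mice and rats, such agonists are known to raise mitochondrial genes and genes typical of brown fat, such as Ucp1.

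Values are log2 intensities, so a difference of 1 is a doubling. The label names the tissue only as retroperitoneal, and adipocyte genes were bright on every array. Adipoq, the adipocyte hormone adiponectin, lay at 10.94 to 11.10 in lean control and 10.81 to 11.02 in rosiglitazone arrays. Of 12 adipocyte markers measured, 0 passed limma's threshold used below in either direction, and 0 had an unadjusted p under 0.05, though 1 fell without lean control arrays 1 and 3, Cfd, the complement factor adipsin (-1.40, adjusted p = 0.0204). Genes named here only for passing without some arrays were chosen after their values were seen. Array medians over the named features lay between 2.95 and 3.06, and correlations among these 10 arrays between 0.94 and 0.984. Some arrays stood apart. Rosiglitazone array 2 had the lowest mean correlation with the other arrays of its group (0.955, against 0.969 to 0.972), the highest mean level of brown adipocyte markers (5.47, against 3.80 to 4.09) and the lowest of collagen and matrix genes. Lean control arrays 1 and 3 were brighter in macrophage markers (5.85 and 5.34) than lean control arrays 2, 4 and 5 (4.17 to 4.61). Fits without both leave out controls seen to stand apart in these data, so a larger difference or smaller p there is no separate support. Obese array 2 was bright in urothelial markers (mean level 7.09, against 2.35 to 3.24 in the 10 arrays compared) and resveratrol array 1 in skeletal muscle markers (6.84), and both enter here only through the estimate of the spread and the means given beside. In adipocyte markers they were dim, at mean levels of 9.13 and 8.26, against 9.65 to 10.05 in the 10 arrays compared. They may thus widen the spread behind the count of 0 in that list. Many calls and list counts that move without single arrays are given with those values, though not all.

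In limma, fitted over all 20 arrays, 763 of 14824 features passed a Benjamini-Hochberg adjusted p of 0.05, which is 5.15%. Of these 387 rose (2.61%) and 376 fell (2.54%), and with each array centred on its median the split was 450 higher and 282 lower. Without lean control array 4, 252 rose. For 520 of the 763 the arrays of the groups did not overlap, against 803 of all 14824 features (5.42%). The median difference over all features was -0.01. Among the features past the threshold the median was 0.91 for those that rose and -0.84 for those that fell. At least a 2-fold difference was seen in 159 that rose and 118 that fell, and at least a 4-fold difference in 34 and 9. All p-values below are two-sided limma values adjusted over these features. They measure only the spread between arrays within a group, pooled over the 4 groups of 5 unless a fit on fewer arrays is named.

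**Figure D1:**
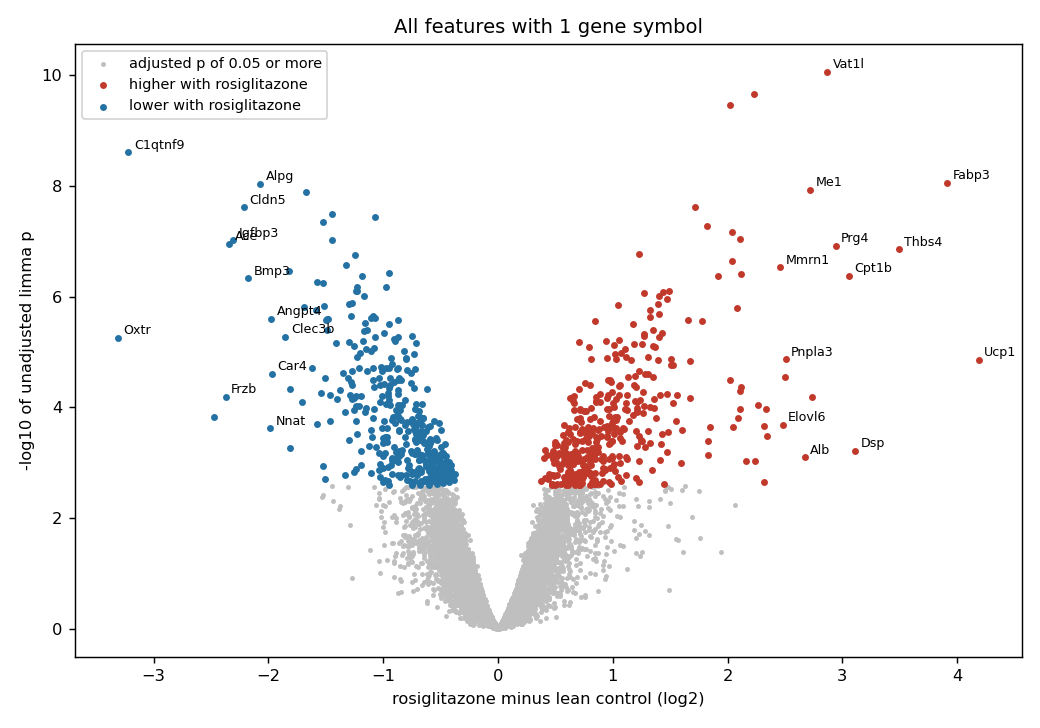
Each point is a feature with 1 gene symbol, with the log2 difference of group means on the x axis and -log10 of the unadjusted limma p on the y axis. Red points (387) were higher and blue points (376) lower with rosiglitazone, and 12 genes in each direction chosen by a rule for large differences are named.

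Genes of fatty acid oxidation rose. This pathway takes fatty acids into mitochondria as carnitine esters and cuts them into acetyl-CoA. Of 23 members measured, 18 rose (78.3%, against 2.61% over all features) and 0 fell, with a median difference of 1.35 against -0.01 over all features. The count was 17 without rosiglitazone array 2 and 16 without lean control arrays 1 and 3.

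Cpt1b, the muscle-type carnitine palmitoyltransferase that commits fatty acids to mitochondrial entry, lay at 6.34, 4.29, 5.84, 5.30 and 4.77 on the lean control arrays and 8.46, 9.82, 7.49, 8.11 and 7.93 on the rosiglitazone arrays. Every rosiglitazone array was above every lean control array, and array 2 was the brightest. It rose by 3.06 (SE 0.43, adjusted p = 0.000197), or 8.31-fold. Its liver-type counterpart Cpt1a differed by -0.10 (adjusted p = 0.906) and did not pass. Slc25a20, the carrier that moves acylcarnitines across the inner membrane, rose by 1.52 (SE 0.31, adjusted p = 0.00528), and by 1.11 without rosiglitazone array 2.

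Fabp3, a fatty acid-binding protein best known from heart and muscle, had 5.83, 3.57, 5.49, 4.15 and 3.71 on the lean control arrays and 8.80, 8.08, 7.99, 8.69 and 8.77 on the rosiglitazone arrays. The groups were separated by more than 2 units, with lean control arrays 1 and 3 highest among the controls. The difference was 3.91 (SE 0.43, adjusted p = 2.24e-05), or 15.1-fold, and Fabp3 had a mean of 4.83 in the obese arrays. Both Cpt1b and Fabp3 are abundant in muscle. Of 10 skeletal muscle markers 0 passed (0 with an unadjusted p under 0.05), and their mean level, 2.21 to 2.38 in lean control and 2.25 to 2.40 in rosiglitazone arrays, lay under the median feature level of 3.02. Resveratrol array 1, bright in these markers (6.84), enters the spread used, so this count of 0 says little. Tnnt3 of the list passed lower, at -1.03, with these groups fitted alone (adjusted p = 0.0243). It also did so without resveratrol array 1 and obese array 2 (adjusted p = 0.00316).

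The enzymes that shorten the chain followed. Acaa2, the thiolase that releases acetyl-CoA, lay at 8.45, 7.76, 7.99, 7.77 and 7.67 on the lean control arrays and 9.96, 10.72, 9.50, 9.82 and 9.77 on the rosiglitazone arrays, so that the lowest rosiglitazone array was about 1 unit above the highest control. It rose by 2.03 (SE 0.19, adjusted p = 1.7e-06). Hadhb, the thiolase subunit of the trifunctional protein, rose 3.76-fold (adjusted p = 0.000197), the long-chain dehydrogenase Acadl 3.54-fold (adjusted p = 5.61e-05) and the short-chain dehydrogenase Acads 3.29-fold (adjusted p = 3.6e-05). Acadvl, which starts on very long chains, rose by 1.5 (SE 0.27), and Etfa, which passes the electrons of these dehydrogenases on, by 1.36 (SE 0.28). For each of these 5 genes every rosiglitazone array was above every lean control array. Members that did not pass were Cpt1a, Acadsb, Echs1, Eci1 and the carnitine transporter Slc22a5, at -0.10 to 0.81.

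Peroxisomes shorten fatty acids that mitochondria handle poorly. Of 26 peroxisomal genes 5 rose (19.2%, against 2.61% over all features) and 0 fell (median 0.34). Without rosiglitazone array 5, 1 fell (Scp2). The ones that rose were Eci2 (1.31), Decr2 (1.27), both enzymes for unsaturated chains, Hsd17b4 (1.0), the multifunctional enzyme, Crot (0.96), which exports chains as carnitine esters, and the membrane protein Pxmp4 (0.85).

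Downstream of oxidation, the tricarboxylic acid cycle with pyruvate dehydrogenase and its regulators had 16 of 20 members that rose (80%, against 2.61% over all features) and 0 that fell, with a median of 1.19. Without rosiglitazone array 2, 13 rose. Pc, pyruvate carboxylase, which makes oxaloacetate from pyruvate, lay at 6.89, 7.09, 6.27, 6.67 and 6.99 on the lean control arrays and 8.36, 8.39, 8.10, 8.67 and 7.84 on the rosiglitazone arrays. No arrays overlapped, and the difference was 1.49 (SE 0.22, adjusted p = 0.000299). Suclg1, a subunit of succinyl-CoA ligase, rose by 1.27 (adjusted p = 0.000907) and Idh3g, a subunit of the isocitrate dehydrogenase of the cycle, by 1.35 (adjusted p = 0.00118). Pdk1, a kinase that switches pyruvate dehydrogenase off, rose by 1.44 (adjusted p = 0.000302) beside the dehydrogenase subunits Pdha1 (0.89) and Pdhb (1.37). Pdk4, another such kinase, rose by 1.6 (adjusted p = 0.0258), but not without rosiglitazone arrays 1 or 2, without lean control arrays 4 or 5, over all features or with these groups fitted alone (adjusted p up to 0.0749).

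The respiratory chain pumps protons with the electrons so gained, and ATP synthase uses the gradient. Of 28 complex I genes measured, 17 rose (60.7%, against 2.61% over all features), 0 fell and all 28 had a positive difference (median 0.85). Of 34 genes of complexes II to V, 21 rose (61.8%) and 0 fell (median 0.78). Without rosiglitazone array 2 the counts were 14 and 15, without lean control array 4 they were 13 and 15, and without lean control array 1 they were 19 and 23. With these groups fitted alone, 10 complex I genes rose.

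Ndufa9, a complex I subunit of the arm that receives electrons, had 6.47, 6.20, 5.96, 5.94 and 6.35 on the lean control arrays and 7.57, 8.46, 7.03, 7.38 and 7.08 on the rosiglitazone arrays. Rosiglitazone array 2 was the brightest and all 5 were above the controls. The difference was 1.32 (SE 0.20, adjusted p = 0.000481), and 1.08 (adjusted p = 0.000209) without that array. Uqcrc1 and Uqcrc2, the core proteins of complex III, rose by 1.43 (SE 0.24) and 1.40 (SE 0.21). Atp5f1d and Atp5mf, subunits of ATP synthase, rose by 1.18 (adjusted p = 0.00111) and 1.17 (adjusted p = 0.000644). In the same complex Atp5f1c had a difference of -0.62 (adjusted p = 0.141), the single negative one of its list.

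Mitochondria also need their own ribosomes and an import machinery for proteins. Of 37 genes of mitochondrial ribosomes and protein import, 6 rose (16.2%, against 2.61% over all features) and 0 fell (median 0.43). The count higher was 3 without rosiglitazone array 2 or without lean control array 3, 4 or 5, and 2 with these groups fitted alone. Timm44, of the import motor, rose by 1.01 (adjusted p = 0.00588) and Hspe1, a chaperonin, by 0.85 (adjusted p = 0.00518). Of 20 genes of branched-chain amino acid breakdown, 4 rose (20%) and 1 fell (5%), against 2.61% and 2.54% over all features. The count higher was 1 without rosiglitazone array 1 or 2 or lean control array 5. The count lower was 0 without rosiglitazone array 1, 2 or 5 or lean control array 2, 4 or 5. The smallest adjusted p was that of Acat1, a thiolase also counted under fatty acid oxidation, at 1.40 (adjusted p = 0.000329). Ivd, the leucine pathway's isovaleryl-CoA dehydrogenase, differed by -0.23 (SE 0.16, adjusted p = 0.504), with means of 6.01 in lean control, 5.78 in rosiglitazone and 4.90 in obese arrays. Ppargc1a, a coactivator that drives mitochondrial genes, lay at 2.06, 1.94, 1.88, 2.47 and 2.30 on the lean control arrays and 3.34, 6.69, 1.84, 2.25 and 2.57 on the rosiglitazone arrays. It was high on rosiglitazone array 2 and on the others overlapped with or stood close to the controls, with a difference of 1.20 (SE 0.56, adjusted p = 0.253).

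Promoters of a few of these genes are printed to show the letters that PPARG and another activator, NRF1, are known to read. PPARG with RXR binds a direct repeat with 1 base between the half-sites (DR1), here AGGTCA, any base (N) and AGGTCA again, with up to 2 mismatches, and NRF1, an activator of respiratory chain genes, a palindrome, here GCGCA, any base and GCGC, with 0 mismatches. Both were searched on both strands in RefSeq promoters of the GRCr8 build, 250 bases before to 50 after each start, of 11723 genes. The DR1 letters were in 3.28% of all these genes, 4.95% of those that rose, 2.3% of those that fell and 4 of 19 fatty acid oxidation genes. They were in 1 of 22 known PPARG targets, 0 of 17 tricarboxylic acid cycle and pyruvate dehydrogenase genes and 1 of 57 respiratory chain and ATP synthase genes. The NRF1 letters were in 6.75% of all, 11.8% of those that rose, 3.29% of those that fell and 13 of 57 respiratory chain and ATP synthase genes. For the other lists, in the order above, they were in 3 of 19 fatty acid oxidation genes, 0 of 22 PPARG targets and 3 of 17 cycle genes. A match is a run of letters and not a measured binding site, and no test was made of these shares. Shown are the 3 fatty acid oxidation genes that rose and hold the DR1 letters, and Ndufa11, a complex I gene, as the respiratory gene with the NRF1 letters and the smallest p. Capitals mark the matched letters. The matches begin at position -17 from the start in Acadvl (chr10:55236656-55236955, minus strand), -154 in Etfa (chr8:64787916-64788215, minus strand, matched on the reverse strand), 16 in Slc25a20 (chr8:118243323-118243622, plus strand) and -97 in Ndufa11 (chr9:1637364-1637663, plus strand), where 2 matches overlap.
Acadvl: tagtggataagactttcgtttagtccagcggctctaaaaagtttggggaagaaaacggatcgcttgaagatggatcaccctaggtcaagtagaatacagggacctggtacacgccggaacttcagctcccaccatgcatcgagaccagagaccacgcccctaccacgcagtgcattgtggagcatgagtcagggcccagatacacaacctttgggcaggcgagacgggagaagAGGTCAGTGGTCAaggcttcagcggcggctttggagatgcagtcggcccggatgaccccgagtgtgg
Etfa: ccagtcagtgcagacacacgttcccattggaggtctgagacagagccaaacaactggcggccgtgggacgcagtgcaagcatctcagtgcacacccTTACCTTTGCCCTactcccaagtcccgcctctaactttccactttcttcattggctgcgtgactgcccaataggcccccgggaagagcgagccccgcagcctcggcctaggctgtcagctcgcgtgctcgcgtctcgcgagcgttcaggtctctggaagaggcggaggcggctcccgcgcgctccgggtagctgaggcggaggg
Slc25a20: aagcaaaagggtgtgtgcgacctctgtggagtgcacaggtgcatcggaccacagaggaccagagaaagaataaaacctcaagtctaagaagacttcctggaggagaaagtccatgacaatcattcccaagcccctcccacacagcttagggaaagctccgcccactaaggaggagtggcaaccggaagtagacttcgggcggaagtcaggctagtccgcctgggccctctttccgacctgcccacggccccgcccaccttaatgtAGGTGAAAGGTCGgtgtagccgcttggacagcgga
Ndufa11: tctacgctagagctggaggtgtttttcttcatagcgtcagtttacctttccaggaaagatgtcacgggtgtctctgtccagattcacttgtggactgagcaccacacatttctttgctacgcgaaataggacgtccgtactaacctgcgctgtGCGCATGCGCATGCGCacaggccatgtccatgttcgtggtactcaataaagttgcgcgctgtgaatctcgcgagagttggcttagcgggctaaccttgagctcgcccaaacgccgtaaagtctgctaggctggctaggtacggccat

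The Acadvl match had 1 mismatch to the DR1 letters, and those of Etfa and Slc25a20 had 2 each. Beside these letters stand the levels: Acadvl had 6.43, 6.07, 5.6, 6.29 and 6.02 on the lean control arrays and 7.65, 9.02, 7.09, 7.28 and 6.90 on the rosiglitazone arrays, with no overlap and array 2 the brightest. Ndufa11 had 6.01, 5.46, 5.71, 5.63 and 5.59 on the lean control arrays and 6.70, 7.24, 6.49, 6.53 and 6.67 on the rosiglitazone arrays, again with no overlap, and rose by 1.04 (SE 0.16, adjusted p = 0.000431).

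Part of the fatty acid synthesis genes rose. Of 15 genes of the lipogenic pathway 7 rose (46.7%, against 2.61% over all features) and 0 fell (median 0.95), and the count was 7 or 8 whichever single array was left out. Me1, the malic enzyme that supplies NADPH, had 8.02, 5.98, 7.88, 6.25 and 6.75 on the lean control arrays and 10.05, 10.004, 9.23, 9.73 and 9.47 on the rosiglitazone arrays. The groups did not overlap although lean control arrays 1 and 3 were more than 1 unit above the other controls, and the difference was 2.72 (SE 0.31, adjusted p = 2.35e-05), or 6.59-fold. Acly, which makes cytosolic acetyl-CoA from citrate, had 7.23, 6.67, 6.66, 6.5 and 6.56 on the lean control arrays and 9.49, 9.92, 7.75, 8.83 and 8.06 on the rosiglitazone arrays. It rose 4.24-fold (difference 2.08, SE 0.32, adjusted p = 0.000463), with no overlap. Slc25a1, the carrier that exports that citrate, rose by 1.22 (adjusted p = 0.000116), Elovl6, which lengthens palmitate, by 2.48 (adjusted p = 0.00958) and Tkt, a pentose phosphate enzyme, by 1.27 (adjusted p = 0.00423). Scd, the main desaturase, stood at 9.37 to 10.60 in lean control and 10.75 to 10.95 in rosiglitazone arrays, a difference of 0.85 (adjusted p = 0.303) that did not pass, with all rosiglitazone arrays above all controls. It passed with these groups fitted alone (adjusted p = 0.0406) and without resveratrol array 1 and obese array 2 (adjusted p = 0.00896). Srebf1, the regulator of the pathway, differed by 0.37 (adjusted p = 0.696).

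Triglyceride storage was read from a pair of lists. In triglyceride synthesis and glyceroneogenesis 1 of 16 genes rose (Pc; 6.25%, against 2.61% higher over all features) and 0 fell, or 1 without rosiglitazone array 2. Pck1, which supplies glycerol for that route, differed by -0.89 (SE 0.41, adjusted p = 0.253), and by -1.31 (adjusted p = 0.0334) without rosiglitazone array 2. Among 9 lipid droplet genes 1 rose (11.1%), and 2 without lean control array 1 or without arrays 1 and 3. It was Cidea, which enlarges droplets and marks brown fat. Cidea lay at 9.25, 7.75, 9.12, 8.08 and 7.92 on the lean control arrays and 10.49, 11.32, 10.23, 10.44 and 10.07 on the rosiglitazone arrays, with no overlap, and rose by 2.09 (SE 0.46, adjusted p = 0.00802). Pnpla3, a lipase and acyltransferase that follows feeding and lipogenic signals, rose by 2.51 (SE 0.45, adjusted p = 0.00167). Plin1, which coats the droplet, had group means of 10.22 and 10.16 and differed by -0.06 (adjusted p = 0.938).

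A list of 28 genes known as PPARG targets had a median of -0.02, close to that over all features. In it 5 rose (17.9%, against 2.61% over all features) and 1 fell (3.57%, against 2.54%). The count lower was 2 without rosiglitazone array 2 or without lean control arrays 1 and 3. The ones that rose were Ucp1, Fabp3, Cpt1b, Cidea and Slc27a1, a fatty acid transporter, and the one that fell was Hcar1. Slc27a1 rose by 1.0 (adjusted p = 0.0278), but not without rosiglitazone arrays 1 or 4, without lean control arrays 1, 3 or 4, over all features or without lean control arrays 1 and 3 together (adjusted p up to 0.188). The targets that mark every adipocyte were bright in both groups and did not pass. Resveratrol array 1 and obese array 2, which enter the spread used, were dim in this list. Their mean levels were 6.23 and 6.64, against 7.31 to 8.23 in the arrays compared. Fabp4, the adipocyte fatty acid-binding protein, differed by -0.01 (SE 0.15), the fatty acid receptor Cd36 by -0.02 (SE 0.18) and Angptl4, an inhibitor of lipoprotein lipase, by 0.10 (SE 0.27). Lpl, lipoprotein lipase itself, had 11.47 to 11.60 in lean control and 11.08 to 11.27 in rosiglitazone arrays, with no overlap and a difference of -0.35 (SE 0.20, adjusted p = 0.385) that did not pass, except without resveratrol array 1 and obese array 2 (adjusted p = 0.0304).

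**Figure D2:**
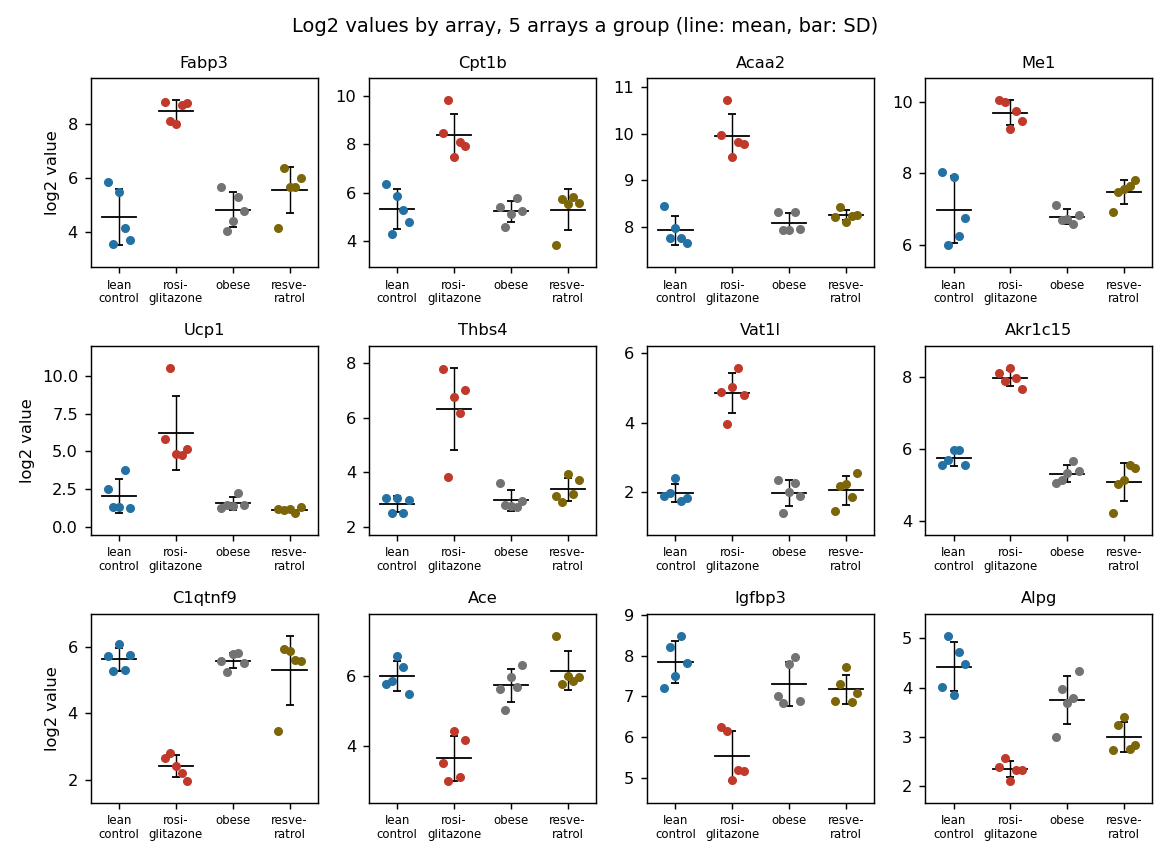
Log2 values of 12 genes on each array (points), with the group mean (line) and SD (bar) of 5 arrays. Rosiglitazone arrays lie above all lean control arrays in the first 8 genes and below them in C1qtnf9, Ace, Igfbp3 and Alpg, with obese and resveratrol arrays beside them.

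Genes of heat production were compared next. Brown adipocytes burn fatty acids through Ucp1, which lets protons leak back into mitochondria. Ucp1 had 2.5, 1.31, 1.30, 3.79 and 1.26 on the lean control arrays and 5.83, 10.52, 4.82, 4.73 and 5.18 on the rosiglitazone arrays. All rosiglitazone arrays were above all controls, array 2 stood far above the others of its group, and lean control array 4 stood above the other controls. The difference was 4.19 (SE 0.75, adjusted p = 0.00168), and 3.11 (adjusted p = 5.13e-05) without rosiglitazone array 2. Of 17 thermogenic genes 6 rose (35.3%, against 2.61% over all features) and 0 fell (median 1.20). The ones that rose were Ucp1, Fabp3, Cpt1b, Cidea, Slc25a20 and Pdk4. Between 5 and 9 rose with 1 array left out, the highest without lean control array 1.

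Of 8 brown adipocyte markers, Ucp1 and Cidea rose (25%, against 2.61% over all features) and 6 did not pass. An unadjusted limma p under 0.05 was seen for 5 of the 8, against 2690 of all 14824 features. The developmental marker Zic1 had means of 1.88 and 1.78, Elovl3 1.51 and 1.16, and Dio2 1.5 and 1.76, all among the dimmer features of the array. The median difference of the list was 0.08, with 4 members positive and 4 negative. The mean level of the list was 3.17 to 3.83 in lean control arrays, 3.80 to 4.09 in rosiglitazone arrays 1, 3, 4 and 5, and 5.47 on array 2. Whether a difference in bulk tissue comes from the number of cells of a type or from RNA per cell cannot be told apart, here and in the lists that follow.

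**Figure D3:**
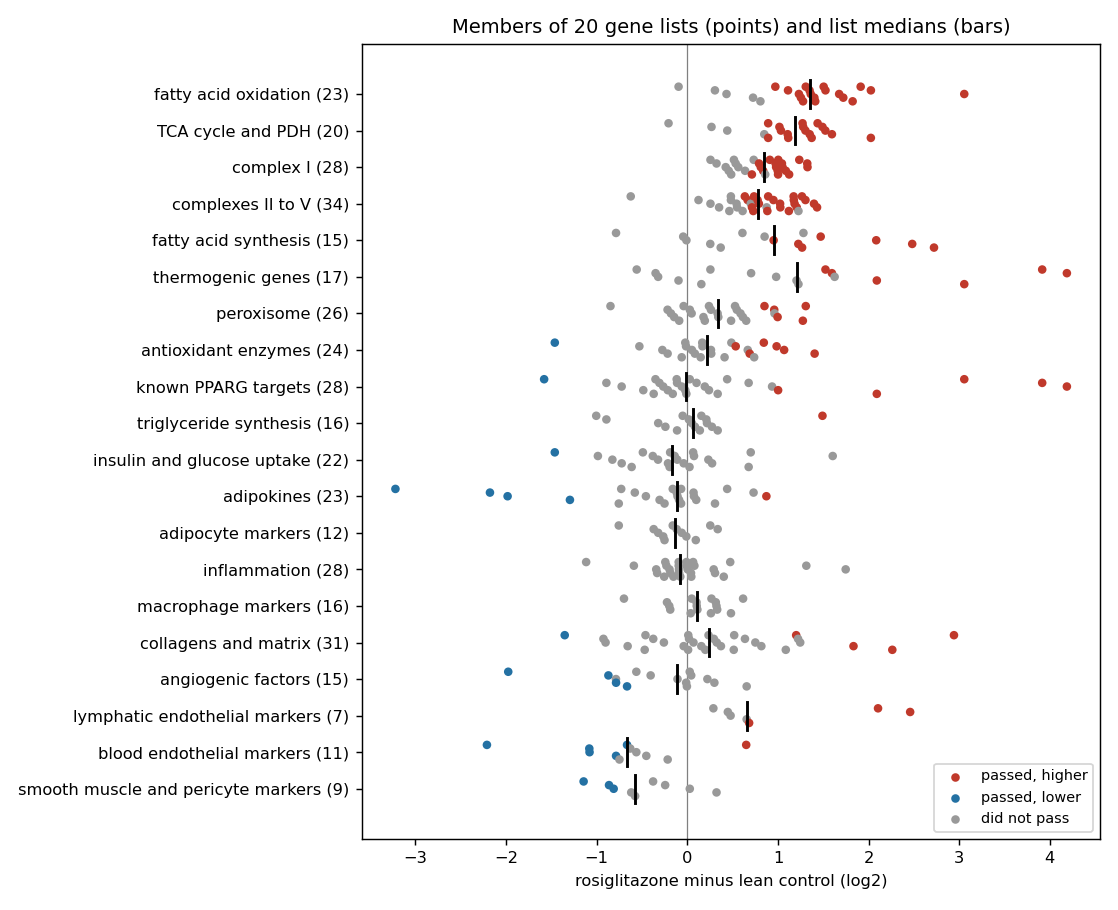
Each point is a measured gene of 1 of 20 lists (number measured in brackets), placed by its log2 difference, rosiglitazone minus lean control, red or blue if it passed higher or lower, and bars are list medians. The medians of the oxidation, TCA cycle and respiratory lists lie to the right of 0, with 0 members that passed lower, and those of blood endothelial and pericyte markers to the left.

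Of 22 genes of insulin signalling and glucose uptake 1 fell (4.55%, against 2.54% lower over all features) and 0 rose, with 4 lower without rosiglitazone array 3, and 1 higher without rosiglitazone array 3 (Gys1) or without lean control array 1 or 3 (Grb14). Irs1, the adaptor that carries the insulin receptor's signal, had 4.23, 5.57, 4.17, 5.80 and 6.12 on the lean control arrays and 4.10, 3.08, 3.89, 4.05 and 3.45 on the rosiglitazone arrays. Lean control arrays 1 and 3 lay just above the brightest rosiglitazone arrays, and arrays 2, 4 and 5 well above them. It fell by 1.46 (SE 0.32, adjusted p = 0.00862), with a difference of -2.11 without lean control arrays 1 and 3, and its mean was 4.29 in the obese arrays. The glucose transporter Slc2a4 differed by 0.68 (SE 0.25, adjusted p = 0.139) and the insulin receptor Insr by -0.21 (SE 0.17, adjusted p = 0.572). In glycolysis 3 of 12 genes rose (25%, against 2.61% over all features), and 1 without rosiglitazone array 1 or 2 or lean control array 4. Pgk1, phosphoglycerate kinase, had the smallest adjusted p of the list (1.02, adjusted p = 0.0105).

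Oxtr, the oxytocin receptor, had 7.58, 5.54, 8.23, 7.03 and 8.20 on the lean control arrays and 4.46, 2.80, 4.19, 4.66 and 3.93 on the rosiglitazone arrays. Every rosiglitazone array was below every control, though lean control array 2 was more than 1 unit below the other controls. The fall was 3.31 (SE 0.55, adjusted p = 0.000978), or 9.91-fold, and the obese mean was 5.68. Hcar1, the lactate receptor that restrains lipolysis, fell by 1.58 (SE 0.35, adjusted p = 0.00935), with a difference of -2.24 (adjusted p = 0.000267) without lean control arrays 1 and 3. Npr1, the natriuretic peptide receptor, fell by 0.61 (adjusted p = 0.0102), but not with these groups fitted alone (adjusted p up to 0.0626). Of 11 genes of lipolysis, 2 fell (18.2%) and 1 rose (Pnpla3, 9.09%), against 2.54% and 2.61% over all features. The count lower was 4 without lean control arrays 1 and 3 and 1 with these groups fitted alone.

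Secreted proteins of adipose tissue fell in 4 of 23 cases (17.4%) and rose in 1 (4.35%), against 2.54% and 2.61% over all features. The count higher was 0 without rosiglitazone array 1 and 2 without lean control array 1. C1qtnf9, a relative of adiponectin, had 5.72, 5.26, 6.10, 5.30 and 5.76 on the lean control arrays and 2.66, 2.80, 2.41, 2.21 and 1.96 on the rosiglitazone arrays, and the groups were separated by more than 2 units. It fell by 3.22 (SE 0.33, adjusted p = 9.24e-06), against a mean of 5.59 in obese and 5.30 in resveratrol arrays. A dimmer feature of this gene had a difference of -0.68 (adjusted p = 0.0791). Bmp3, a growth factor of the BMP family, had 4.22, 3.97, 4.58, 3.48 and 5.46 on the lean control arrays and 2.87, 2.19, 2.10, 1.81 and 1.84 on the rosiglitazone arrays, with no overlap, and fell by 2.18 (SE 0.31, adjusted p = 0.000209). Serpina12, the adipokine vaspin, fell by 1.29 (SE 0.20, adjusted p = 0.000423). Nnat, a proteolipid of fat and neurons, had 9.47 to 10.20 in lean control and 7.12 to 8.92 in rosiglitazone arrays and fell by 1.98 (adjusted p = 0.0105). Without lean control arrays 1 and 3 the Nnat call was lost (adjusted p = 0.0663), and its dimmer feature had a difference of -0.78 (adjusted p = 0.242). Lep, leptin, had 10.23, 8.62, 10.26, 7.88 and 8.78 on the lean control arrays and 9.23, 7.49, 9.58, 8.79 and 9.43 on the rosiglitazone arrays. These overlapped widely, with lean control arrays 1 and 3 brightest of all, and the difference was -0.25 (SE 0.67, adjusted p = 0.906). Retn, resistin, differed by -0.16 (adjusted p = 0.897).

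Other large falls were in enzymes and binding proteins at the cell surface or outside it. Ace, the angiotensin-converting enzyme, had 5.78, 5.86, 6.57, 6.25 and 5.50 on the lean control arrays and 3.51, 3.01, 4.43, 3.12 and 4.17 on the rosiglitazone arrays. No arrays overlapped, and it fell by 2.34 (SE 0.30, adjusted p = 8.65e-05), or 5.07-fold. Igfbp3, which holds insulin-like growth factors in circulation, had 7.21, 8.22, 7.50, 8.49 and 7.81 on the lean control arrays and 6.24, 6.16, 4.94, 5.20 and 5.16 on the rosiglitazone arrays and fell by 2.31 (SE 0.29, adjusted p = 7.94e-05). Frzb, a secreted Wnt antagonist, had 4.11, 6.81, 3.59, 6.71 and 6.79 on the lean control arrays and 3.22, 3.55, 3.09, 3.03 and 3.25 on the rosiglitazone arrays. Lean control arrays 1 and 3 lay near the rosiglitazone arrays and arrays 2, 4 and 5 far above, so that the fall was 2.37 (SE 0.48, adjusted p = 0.00461) and the difference without arrays 1 and 3 was -3.54. The alkaline phosphatase Alpg fell by 2.07 (SE 0.23, adjusted p = 2.24e-05), the membrane-bound carbonic anhydrase Car4 by 1.97 (SE 0.37, adjusted p = 0.00253) and Clec3b, the plasminogen-binding tetranectin, by 1.85 (SE 0.31, adjusted p = 0.000951).

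Several blood vessel genes fell. Of 11 endothelial markers 5 fell (45.5%, against 2.54% over all features), 1 rose (9.09%, against 2.61%) and the median was -0.66. Their mean level was 5.79 to 5.99 in lean control and 5.09 to 5.29 in rosiglitazone arrays, with no overlap. Cldn5, a protein of endothelial tight junctions, had 5.49, 4.40, 5.17, 4.13 and 5.25 on the lean control arrays and 2.91, 2.18, 3.16, 2.64 and 2.52 on the rosiglitazone arrays. It fell by 2.21 (SE 0.26, adjusted p = 3.6e-05), and the obese mean was 4.74. Cdh5, the cadherin of endothelial junctions, fell by 1.08 (SE 0.23, adjusted p = 0.0062), the sialomucin Emcn by 1.08 (SE 0.19, adjusted p = 0.00123) and the VEGF receptor Flt1 by 0.79 (SE 0.18, adjusted p = 0.011). Tie1, another endothelial receptor, fell by 0.66 (adjusted p = 0.00974), but not with these groups fitted alone (adjusted p up to 0.0552). Vwf, the clotting factor carrier of endothelium, rose by 0.65 (SE 0.18, adjusted p = 0.0417) with no overlap of arrays, but not without rosiglitazone arrays 1, 3 or 5, without lean control arrays 2, 3, 4 or 5, over all features, with the replicate block or without lean control arrays 1 and 3 together (adjusted p up to 0.103).

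Pericytes and smooth muscle wrap these vessels. Of 9 of their markers 3 fell (33.3%, against 2.54% over all features) and 0 rose (median -0.58). The count lower was 2 without rosiglitazone array 3 or lean control array 2, 4 or 5, and 4 without lean control array 1. Kcnj8, a pericyte subunit of ATP-sensitive potassium channels, fell by 1.14 (SE 0.21, adjusted p = 0.00234) and Notch3, a receptor of mural cells, by 0.81 (SE 0.17, adjusted p = 0.00504). Smooth muscle Tagln differed by 0.32 (adjusted p = 0.753). Among 15 angiogenic factors and receptors 4 fell (26.7%, against 2.54% over all features) and 0 rose (1, Flt4, without rosiglitazone array 1 or lean control array 2). Those that fell included Angpt4, an angiopoietin, by 1.98 (SE 0.31, adjusted p = 0.000601) and Nrp1, a coreceptor of VEGF, by 0.87 (SE 0.18, adjusted p = 0.00566).

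Some lymphatic vessel markers rose. All 7 measured had a positive difference (median 0.65), 3 rose (42.9%, against 2.61% over all features) and 0 fell, and 2 to 4 rose with 1 array left out. Mmrn1, a secreted multimerin of lymphatic endothelium and platelets, had 2.63, 2.12, 3.30, 3.46 and 2.38 on the lean control arrays and 5.97, 5.04, 5.40, 3.93 and 5.84 on the rosiglitazone arrays. All rosiglitazone arrays were above all controls and array 4 was the nearest to them, with a difference of 2.46 (SE 0.34, adjusted p = 0.000169). Ccl21, the chemokine that draws cells to lymphatics, had 2.33, 2.03, 2.10, 3.22 and 2.85 on the lean control arrays and 3.73, 4.75, 4.89, 4.33 and 5.34 on the rosiglitazone arrays and rose by 2.10 (SE 0.27, adjusted p = 7.94e-05). The third was Reln (0.68, adjusted p = 0.0415), but not without rosiglitazone arrays 2, 3, 4 or 5, without lean control arrays 1, 3, 4 or 5, over all features, with these groups fitted alone or without lean control arrays 1 and 3 together (adjusted p up to 0.166). Prox1, the regulator of lymphatic identity, lay at 1.44 and 1.92, among the dimmer features, and the receptor Flt4 differed by 0.65 (adjusted p = 0.0563).

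**Figure D4:**
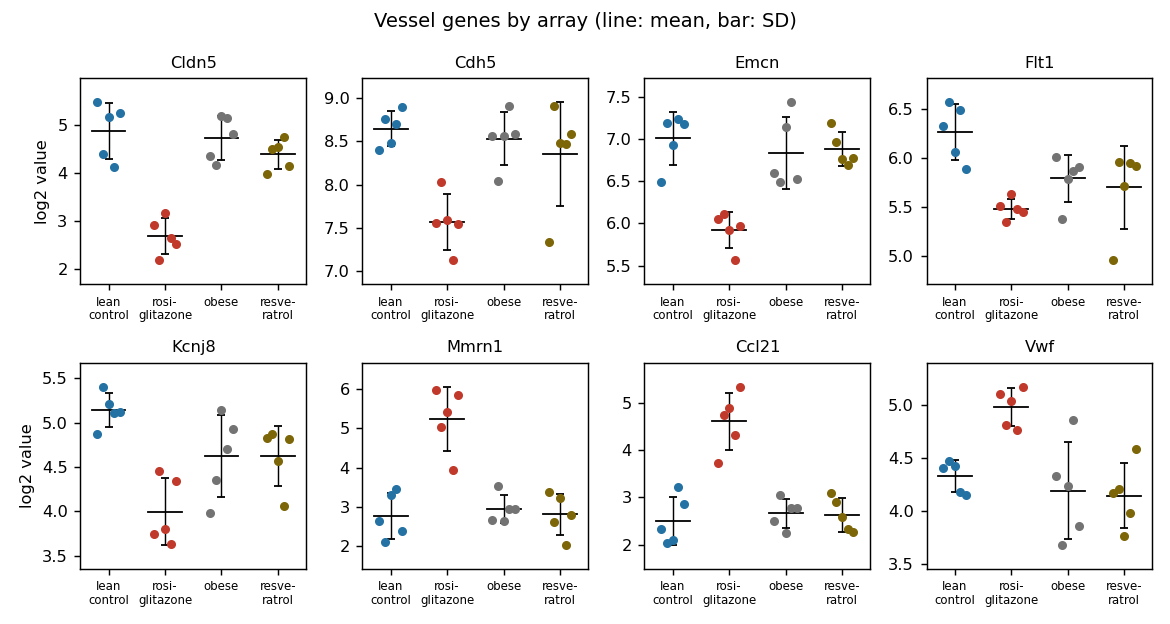
Log2 values of 8 vessel genes on each array (points), with the group mean (line) and SD (bar) of 5 arrays. In the blood endothelial genes Cldn5, Cdh5, Emcn and Flt1 and the pericyte gene Kcnj8 rosiglitazone arrays lie below lean control arrays, and in Mmrn1, Ccl21 and Vwf above them.

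The count of matrix genes depended on rosiglitazone array 2. Of 31 collagen and matrix genes 4 rose (12.9%, against 2.61% over all features) and 1 fell (3.23%, against 2.54%), with a median of 0.23. Without rosiglitazone array 2, 9 rose. Thbs4, a thrombospondin of tendon, muscle and injured tissue that is not on that list, had 3.07, 2.52, 3.06, 2.51 and 3.0 on the lean control arrays and 7.78, 3.83, 6.78, 6.18 and 7.04 on the rosiglitazone arrays. Array 2 was the lowest of the rosiglitazone arrays but still above all controls, and Thbs4 rose by 3.49 (SE 0.45, adjusted p = 9.82e-05), or by 4.11 without array 2. Col8a1, a short-chain collagen of vessel walls, had 3.50, 3.58, 3.09, 2.38 and 2.26 on the lean control arrays and 5.58, 2.70, 5.78, 6.08 and 5.99 on the rosiglitazone arrays. There array 2 lay within the controls and the other 4 arrays above them, and the rise was 2.26 (SE 0.47, adjusted p = 0.00562), or 2.89 (adjusted p = 5.26e-06) without array 2. Prg4, the joint lubricant lubricin, had 5.68, 4.61, 5.29, 5.04 and 3.82 on the lean control arrays and 7.71, 7.51, 7.71, 7.43 and 8.77 on the rosiglitazone arrays and rose by 2.94 (SE 0.38, adjusted p = 8.95e-05). Loxl1, which crosslinks elastin, rose by 1.83 (SE 0.44, adjusted p = 0.0146), and the proteoglycan Bgn by 1.20 (SE 0.34, adjusted p = 0.0403), but not without rosiglitazone arrays 1, 3, 4 or 5, without lean control arrays 2, 4 or 5, after quantile normalisation again, over all features or with these groups fitted alone (adjusted p up to 0.122). The fall on the list was in Nid2, which helps to build basement membranes, at 1.35 (SE 0.25, adjusted p = 0.00243). The protease Adamts9 fell by 0.98 (SE 0.23, adjusted p = 0.0133), while the fibrillar collagen genes Col1a1 (-0.26) and Col3a1 (-0.66) did not pass.

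Immune genes were read from several lists. Among 28 inflammation genes, 22 lysosomal and lipid macrophage genes, 16 interferon genes, 10 complement genes and 16 macrophage markers, 0 passed in limma in either direction, where 5.15% of all features passed. In the same order 5, 3, 3, 1 and 1 had an unadjusted p under 0.05, against 2690 of all 14824 features. With single arrays left out, 2 inflammation genes rose without rosiglitazone array 2 (the chemokines Ccl2 and Ccl7) and 1 without lean control array 1 (Ccl2), 3 genes of the lysosomal list rose without lean control array 1 (Ctsd, Lgals3 and Plin2) and 1 without rosiglitazone array 2 (Lgals3), and 1 interferon gene fell without rosiglitazone array 1 (Usp18). Without lean control arrays 1 and 3 together, 3 genes of the lysosomal list rose, the same as without array 1, and 1 complement gene fell (Cfd). Ccl2, the chemokine that draws monocytes, had 5.86, 3.85, 4.8, 4.50 and 5.21 on the lean control arrays and 5.77, 4.31, 8.06, 7.46 and 7.36 on the rosiglitazone arrays. It was high on rosiglitazone arrays 3, 4 and 5 and within the controls on arrays 1 and 2, and differed by 1.75 (SE 0.53, adjusted p = 0.0568), or by 2.32 (adjusted p = 0.00213) without array 2. Ccl2 also passed with array weights (adjusted p = 0.00382), with the replicate block (0.0357) and with dim features left out (0.0368). Without resveratrol array 1 and obese array 2 it passed too (adjusted p = 0.0313). Adgre1, the macrophage marker F4/80, differed by -0.70 (SE 0.24, adjusted p = 0.108), and passed without resveratrol array 1 and obese array 2 (adjusted p = 0.0126). Of 10 markers of dendritic cells and MHC class II, 2 fell (20%, against 2.54% over all features). They were Cd74, the invariant chain, by 1.13 (adjusted p = 0.0171) and RT1-Da, a class II chain, by 1.24 (adjusted p = 0.0307). The Cd74 call was lost with these groups fitted alone or without lean control arrays 1 and 3 together (adjusted p up to 0.121) and that of RT1-Da without rosiglitazone arrays 1, 2 or 4, without lean control arrays 1, 3 or 4, over all features, with array weights, with these groups fitted alone or without lean control arrays 1 and 3 together (adjusted p up to 0.205). Their lean control values were highest on array 1, at 10.61 and 9.09. Cell cycle (26 genes), circadian clock (11) and immediate early genes (20) also had 0 members past the limma threshold, with 1, 5 and 4 at an unadjusted p under 0.05. Without rosiglitazone array 4, 2 immediate early genes (Egr1 and Nr4a1) and 1 clock gene (Per2) fell. Egr1 also fell without lean control array 2, and Per2 without lean control array 3 or 5.

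Protective enzymes and regulators completed the comparison. Of 24 antioxidant genes 6 rose (25%) and 1 fell (4.17%), against 2.61% and 2.54% over all features. Between 3 and 7 rose with 1 array left out, the lowest without lean control array 3. Sod2, the superoxide dismutase of mitochondria, rose by 1.40 (SE 0.23, adjusted p = 0.000959), its cytosolic relative Sod1 by 0.84 (SE 0.13, adjusted p = 0.000612) and the mitochondrial peroxidase Prdx3 by 1.07 (SE 0.19, adjusted p = 0.00145). Gstm2, a glutathione transferase, fell by 1.46 (SE 0.29, adjusted p = 0.00449). Akr1c15, an aldo-keto reductase, had 5.55, 5.69, 5.98, 5.96 and 5.54 on the lean control arrays and 8.11, 7.88, 8.24, 7.98 and 7.66 on the rosiglitazone arrays. The spread within both groups was small, and it rose by 2.23 (SE 0.20, adjusted p = 1.64e-06), or 4.69-fold. Dhrs3, which turns retinal back to retinol, fell by 1.04 (SE 0.20, adjusted p = 0.00283). Of 19 nuclear receptors and cofactors 2 fell (10.5%, against 2.54% over all features) and 0 rose. Nrip1, in mice a corepressor of oxidative genes in fat, fell by 1.28 (SE 0.20, adjusted p = 0.000588) and Nr3c1, the glucocorticoid receptor, by 0.66 (SE 0.14, adjusted p = 0.00797). Ppara, the receptor that drives fatty acid oxidation in liver, had a difference of 1.63 (SE 0.48, adjusted p = 0.0505) that did not pass, and passed under 8 alternatives with differences of 1.32 to 1.98 (adjusted p = 0.0151 to 0.0477), among them without rosiglitazone array 5 or lean control array 1.

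Counts in the remaining pathway lists moved with single arrays. Of 19 genes of fatty acid uptake and binding 3 rose (15.8%, against 2.61% over all features), and 1 without rosiglitazone array 1. Of 19 of cholesterol synthesis and uptake 2 rose (10.5%), 0 without lean control array 4, 1 without rosiglitazone array 2 and 5 without lean control array 1. Of 17 proteases and their inhibitors 2 fell (11.8%, against 2.54%), and 1 without rosiglitazone array 4 or lean control array 2 or 5. Without rosiglitazone array 2, 1 of them rose (Timp1). Of 20 genes of endoplasmic reticulum stress 1 fell (5%), Xbp1, a transcription factor that is also on the B and plasma cell list. The count was 0 without rosiglitazone array 2, 4 or 5 or lean control array 2, 4 or 5 or with centred arrays. Ddit3 rose without rosiglitazone array 5. Among the remaining cell type markers, 1 of 11 of mast cells rose (9.09%, against 2.61% over all features). In Schwann cells and nerve 1 of 6 fell (16.7%, against 2.54%), and in B and plasma cells 1 of 8 (Xbp1, 12.5%). Each of these is a single gene. The mast cell and Schwann cell counts were 0 and 0 without lean control arrays 1 and 3. Of 95 markers of preadipocytes, T and natural killer cells, neutrophils, urothelium, other epithelium, mammary gland, kidney, adrenal cortex, pancreas, red cells and male accessory glands, 0 passed in limma. Of them 11 had an unadjusted p under 0.05, against 2690 of all 14824 features. Obese array 2 (urothelial mean level 7.09) and resveratrol array 1 (mammary 7.5) enter the spread used, so a count of 0 in those lists says little. Without both arrays, Cd34 of preadipocytes, Klrd1 of T and natural killer cells and Semg1 of accessory glands fell (adjusted p = 0.00676, 0.0215 and 0.039). With single arrays left out, Cxcr2 of neutrophils fell without lean control array 1 or 3, Mfap5 of preadipocytes rose without rosiglitazone array 2 and Cd34 fell without array 3. Aqp2 of kidney rose without rosiglitazone array 2 or lean control array 1, Slc4a1 of red cells rose without rosiglitazone array 3, and Svs1 of accessory glands fell without rosiglitazone array 4 or lean control array 5.

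Vat1l and Dsp were dim in controls and rose. Vat1l had 1.88, 2.0, 2.40, 1.77 and 1.83 on the lean control arrays and 4.89, 3.97, 5.03, 5.57 and 4.78 on the rosiglitazone arrays, the smallest p of all features, and a difference of 2.87 (SE 0.24, adjusted p = 1.29e-06). Dsp, the desmosome protein desmoplakin, had 2.21, 2.16, 2.39, 2.31 and 1.90 on the lean control arrays and 4.87, 4.25, 5.30, 5.92 and 6.17 on the rosiglitazone arrays and rose by 3.11 (SE 0.78, adjusted p = 0.0195), but not without rosiglitazone array 5 or without lean control arrays 1 and 3 together (adjusted p up to 0.0547). Its obese arrays had 6.83 on array 2, the one bright in urothelial markers, and 2.04 to 2.52 on the others. Its resveratrol arrays had 6.22 on array 1, the one bright in skeletal muscle and mammary markers, and 2.27 to 2.52 on the others. Both bright arrays enter the spread behind its SE. Mesothelium, the lining beside this fat, carries desmosomes, and of 9 mesothelial markers 0 passed (0 with an unadjusted p under 0.05). Their mean level was 2.19 to 4.66 in lean control and 2.70 to 4.35 in rosiglitazone arrays, and their part in the Dsp difference was not tested.

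Alb, the serum protein albumin, varied widely among the controls. It had 5.19, 8.16, 3.91, 8.73 and 8.80 on the lean control arrays and 9.85, 9.44, 9.61, 10.25 and 9.0 on the rosiglitazone arrays. All rosiglitazone arrays were above all controls, but lean control arrays 1 and 3 were about 3 units or more below arrays 2, 4 and 5, and obese arrays had 3.04 to 4.54. The rise was 2.67 (SE 0.68, adjusted p = 0.0227), and the call was lost without rosiglitazone arrays 1 or 4, without lean control arrays 1 or 3, with trend and robust settings, with these groups fitted alone or without lean control arrays 1 and 3 together (adjusted p up to 0.107). Of the other 7 hepatocyte markers 0 passed, and 6 of the 8 stayed under the median feature level of 3.02 on every array of the series.

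**Figure D5:**
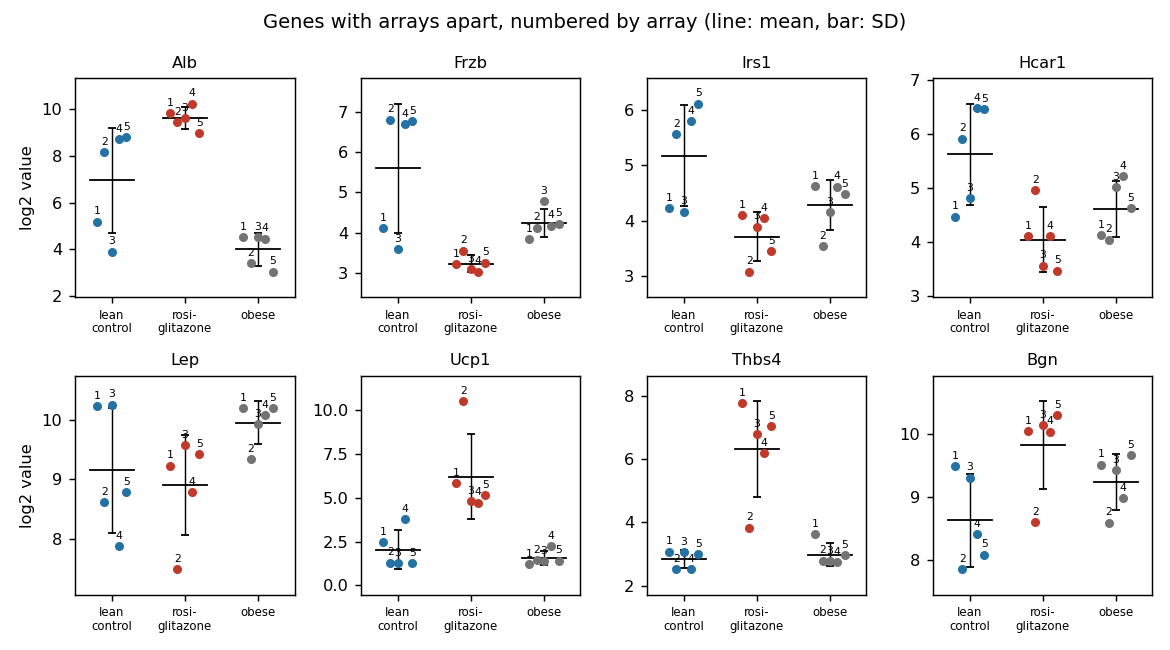
Log2 values of 8 genes on each array, numbered by replicate, with the group mean (line) and SD (bar) of 5 arrays. Lean control arrays 1 and 3 stand apart from 2, 4 and 5 in Alb, Frzb, Irs1, Hcar1 and Lep, and rosiglitazone array 2 from its group in Ucp1, Thbs4 and Bgn.

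The other contrasts of the series share arrays with this one, so their values are set beside it with no test across them. Obese minus lean control had 27 features past the threshold (0.182%) and rosiglitazone minus obese had 1461 (9.86%), 1060 higher (7.15%) and 401 lower (2.71%). The median of the fatty acid oxidation list was 1.35 in rosiglitazone minus lean control, 1.61 in rosiglitazone minus obese and -0.27 in obese minus lean control. For complex I these medians were 0.85, 1.16 and -0.27, and for blood endothelial markers -0.66, -0.36 and -0.17. Acy1, an aminoacylase, had means of 3.80 ± 0.35 in lean control, 3.87 ± 0.16 in rosiglitazone and 2.54 ± 0.32 in obese arrays (SD, n = 5), and differed from lean control by 0.07 (SE 0.18, adjusted p = 0.9) in limma with rosiglitazone. Nid2 had 6.57, 5.22 and 5.26 in the same order, and Igfbp3 7.85, 5.54 and 7.31.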

How the data were processed

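Affymetrix Rat Gene 2.1 ST arrays measured the RNA of 20 retroperitoneal samples in 4 groups of 5. The deposited values are log2 intensities made by the authors with RMA (background correction, quantile normalisation and summary of the probes of a feature), per the submitters' processing notes. The RMA version is not given in the sources used here, and the log2 scale was read from the method and the range of the values. The number of arrays limits the precision. Features with exactly 1 gene symbol in the platform annotation (14824 of 36685, for 14557 genes) were compared in limma 3.58.1 (R 4.3.3), as group means over all 20 arrays, two-sided, with Benjamini-Hochberg adjustment over those features and a threshold of 0.05. For the 234 genes with several features, lists took the feature with the highest mean. RMA compresses dim values, so no linear fold is given where a group mean lay under the median feature level.

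The members, the 56 gene lists (883 of 1199 entries measured, 8 through an older symbol) and the tests were chosen with earlier results of these data known. Genes named in the text are the 12 largest differences in each direction past the threshold, with arrays that did not overlap and a higher mean above the median feature, then up to 4 members per list in each direction by smallest p, and a set of adipose genes. Some of these were left out for length after their values were seen. Members of families with close relatives (Akr1c15, Gstm2, Ccl21, RT1-Da) may share probes, so their levels are uncertain. Samples were grouped by title. Alternatives were other normalisations, features, variance models, weights and samples, and each array left out. All value columns were matched to samples, so 0 were left unused. Figures were drawn with matplotlib 3.10.9 in Python 3.11.15.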

Additional observations from a re-analysis of the deposited data

Results flagged for a closer look

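For 109 genes of the text, the 5 arrays of each of the rosiglitazone and lean control groups were searched for an array far from the other 4 by Dixon's test. Of 218 such sets 14 held one, and chance gives about 1 in 20. Rosiglitazone array 2 accounted for 7 of the 14. It stood above the others of its group in Ucp1 (10.52, against 4.73 to 5.83), in the respiratory chain genes Ndufa11 (7.24, against 6.49 to 6.70) and Atp5f1d (9.43, against 8.46 to 8.62), in Suclg1 of the tricarboxylic acid cycle (8.76, against 7.37 to 7.75) and in the droplet coat Plin1 (10.49, against 10.06 to 10.12). It stood below them in the matrix genes Col8a1 (2.70, against 5.58 to 6.08) and Bgn (8.6, against 10.04 to 10.30).

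Lean control array 1 stood above the other controls in Uqcrc1 (6.73, against 5.89 to 6.09), Idh3g (8.37, against 7.60 to 7.76) and Acly (7.23, against 6.5 to 6.67), and below them in Sox7 (4.71, against 5.18 to 5.35). Lean control array 4 was low in Pcdh17 (4.11, against 4.45 to 4.58). Rosiglitazone array 5 was high in Prg4 (8.77, against 7.43 to 7.71) and rosiglitazone array 1 in Acy1 (4.14, against 3.73 to 3.85).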

How the results depend on the processing

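The number of features past the threshold was 763 (387 higher and 376 lower) and ranged from 518 to 943 with 1 array left out, from 252 to 544 for those higher and from 259 to 399 for those lower, with 252 higher without lean control array 4. It was 523 (243 higher and 280 lower) with the rosiglitazone and lean control arrays fitted alone, and 732 (450 and 282) with each array centred on its median, which moved the median difference from -0.01 to 0.04. Values normalised again by quantiles gave 875, array weights 968, trend and robust settings 724, features above the median level alone 833 of 7412, and all features 1044 of 36685. With 1 feature per gene the count was 755 and with their mean 758, and 345 higher and 302 lower were at least 1.5-fold. Without lean control arrays 1 and 3 it was 777, and without resveratrol array 1 and obese array 2, 1056. With the replicate block it was 718 (376 higher and 342 lower), but the numbers were not taken as pairs, since correlations of the deviations of same-numbered arrays ran from -0.15 to 0.15 and only 2 of 5 rosiglitazone arrays correlated best with the lean control array of their own number. Of 109 genes examined for the text, 92 passed the threshold, 79 of these in every alternative that gave the gene a value (21 or 22 of the 23 run). None reversed, and 5 that did not pass (Scd, Lpl, Pck1, Ccl2 and Adgre1) did so in at least 1 alternative. Where calls changed, the cause was not tested beyond the samples or features left out. Dim features cannot be told from background on this table, which gives no detection call, and the drug cannot be told apart from genotype, diet and obesity.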

Other observations

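Groups of genes outside the lists were read by the shared start of their symbols and were chosen after their values were seen, so their counts are descriptions. Of 38 proteasome subunits, which form the particle that degrades tagged proteins, 11 rose and 0 fell, with a median difference of 0.35 against -0.01 over all features and 5.15% of features past the threshold. Without rosiglitazone array 2, 5 rose, and without lean control arrays 1 and 3, 12 rose. Psmb1, a subunit of the catalytic core, had 6.25, 6.21, 5.84, 5.64 and 6.0 on the lean control arrays and 6.82, 6.79, 6.58, 6.55 and 6.84 on the rosiglitazone arrays. All rosiglitazone arrays were above all controls, with a difference of 0.73 (SE 0.16, adjusted p = 0.00868). Of 65 mitochondrial ribosomal proteins 12 rose and 0 fell, where 2.61% of all features rose, and 4 rose without rosiglitazone array 2. Slc25a5, which exchanges ATP for ADP across the inner mitochondrial membrane, rose by 1.14 (SE 0.21, adjusted p = 0.00277), and a feature named for a pseudogene of it also rose, so the level of the gene itself is uncertain.

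Of 75 potassium channel genes 9 fell and 0 rose, where 2.54% of all features fell and 2.61% rose. The count lower was 8 without rosiglitazone array 2 and 9 without lean control arrays 1 and 3. Kcnn3, a calcium-activated channel of endothelium and nerve, had 5.74, 6.87, 6.05, 7.08 and 7.34 on the lean control arrays and 5.31, 4.15, 4.56, 5.51 and 5.01 on the rosiglitazone arrays. Every rosiglitazone array was below every control, and it fell by 1.71 (SE 0.35, adjusted p = 0.0052). Other endothelial genes outside the marker list, also chosen after their values were seen, fell too. Nos3, the endothelial nitric oxide synthase, fell by 1.08 (SE 0.21, adjusted p = 0.00359), the transcription factor Sox7 by 1.23 (SE 0.22, adjusted p = 0.00164), the C-type lectin-like receptor Cd93 by 1.07 (SE 0.17, adjusted p = 0.000595) and the protocadherin Pcdh17 by 1.57 (SE 0.22, adjusted p = 0.000235).

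Hemgn, a nuclear protein of red cell precursors, had 3.30, 2.60, 2.63, 2.03 and 2.65 on the lean control arrays and 7.89, 5.20, 3.17, 3.11 and 4.64 on the rosiglitazone arrays. Rosiglitazone array 1 was the brightest and arrays 3 and 4 lay within the range of the controls, with a difference of 2.16 (SE 0.56, adjusted p = 0.0246) that was lost without rosiglitazone array 2, without lean control arrays 2 or 4, with trend and robust settings or with these groups fitted alone (adjusted p up to 0.115). The mean level of 4 red cell genes was 7.98 on that array, against 3.97 to 5.38 on the other 9 arrays of these groups, and 0 of them passed in limma (3 with an unadjusted p under 0.05).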
